A study of Mus musculus with 18 samples.

Results

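The genes described here are 10 transcription factors that are used to mark or study the cardiac fibroblast lineage: Tcf21, Tbx18, Tbx20, Gata4, Gata6, Hand2, Meox1, Twist1, Prrx1 and Osr1. They were chosen by name, and all 10 are among the 55453 gene symbols of the deposited count table. All 10 also passed the filter on low counts, which kept 16170 symbols for testing. They were followed through bulk RNA sequencing of 18 libraries, 3 in each of 6 groups, made from GFP+ cells sorted from the apical ventricles of hearts of neonatal mice.

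All pups were Tcf21-MerCreMer; Rosa-mTmG with 1 copy of each allele, their strain is labelled C57BL/6J, and all received tamoxifen at P1. In these mice a tamoxifen-inducible Cre is made where Tcf21 is active and switches the cell and its descendants from membrane tdTomato to membrane GFP, so the sort selects cells by their Tcf21 history and not by their Tcf21 level on the day of collection. The P2 baseline and P10 baseline groups had no surgery. At P2, pups of the P2 resected +3 days group lost the ventricular apex and those of the P2 sham +3 days group had sham surgery, and both were collected at P5. The P10 resected +3 days group and its control, P10 sham +3 days, had the same at P10 and were collected at P13. The 3 groups that begin with P2 are called the P2 window and the other 3 the P10 window. Surgery at P2 falls in the age at which the mouse heart can regenerate, and surgery at P10 after it. The labels do not say whether the 3 libraries of a group came from separate animals, so p-values measure the spread between these libraries, which may be technical. Hearts collected at the later ages were digested for longer, so age and digestion time cannot be told apart. In sorted bulk RNA, fewer cells that express a gene and less RNA per expressing cell also cannot be told apart.

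Cardiac fibroblasts arise mainly from the epicardium, the outer cell layer of the heart, whose cells lose their epithelial contacts and move into the muscle wall. TCF21, a basic helix-loop-helix (bHLH) factor, is needed for the epicardial cells to enter the fibroblast fate and stays on in resident fibroblasts. TBX18 marks the epicardium and the cells derived from it, GATA4, GATA6, HAND2 and TBX20 are shared with cardiomyocytes and other heart lineages, TWIST1 and PRRX1 are general mesenchymal factors, MEOX1 is a homeobox factor of the somites that is also known from activated cardiac fibroblasts, and OSR1 is a zinc-finger factor of embryonic mesoderm and connective tissue.

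Library totals ran from 10462737 to 22980554 counts, and each of the 10 factors had at least 102 counts in every library. Fibroblast genes were abundant in every library (the summed level of 12 markers was 58793 to 123603 CPM, the count scaled to an effective library size of 1000000), while the defining markers of the epicardium and of Schwann cells were low or without counts. Of 9 epicardial markers, Aldh1a2, which fibroblasts also make, was at 795 to 2092 CPM and the other 8 did not exceed 16.5 CPM in any library. Counts were found for 4 to 9 of the 9 in the libraries of both resected groups, and for 1 to 6 in baseline and sham libraries. The epicardial markers Wt1, Upk3b and Bnc1 had no counts in 6, 9 and 15 of the 18 libraries, and Sox10, the Schwann cell and neural crest marker, had none in 17. Cardiomyocyte transcripts were present at a low level, with a summed level of 13 markers of 163 to 1564 CPM.

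Per kilobase of annotated exon, Tcf21 was the most abundant of the 10, at 123 ± 26.6 CPM per kb (SD, n = 18 libraries), ahead of Gata4 at 79.5 ± 17.7 CPM per kb and Meox1 at 47.4 ± 17.1 CPM per kb. The rank of Tcf21 over Gata4 held in 16 of 18 libraries, that of Gata4 over Meox1 in 17 and that of Meox1 over Osr1 in 17. Osr1 (22.5 CPM per kb), Tbx20 (14.5), Twist1 (13.7), Gata6 (13.2) and Tbx18 (11.4) formed a middle group, in which neighbours changed places between libraries and between the ages: Osr1 was above Tbx20 in 12 of 18 libraries, Tbx20 above Twist1 in 8, Twist1 above Gata6 in 9 and Gata6 above Tbx18 in 12. The order of Osr1 and Tbx20 differed with age: Osr1 was at 13 and Tbx20 at 20.4 CPM per kb on average in the P2 window, with Osr1 above in 3 of 9 libraries, and they were at 32.0 and 8.66 CPM per kb in the P10 window, with Osr1 above in 9 of 9. Tbx20 was above Twist1 in 6 of 9 libraries of the P2 window and 2 of 9 of the P10 window, Twist1 above Gata6 in 3 and then 6, and Gata6 above Tbx18 in 4 and then 8. Hand2 (5.02 CPM per kb) and Prrx1 (4.88 CPM per kb) were lowest. These values divide by the length of all annotated exons of a gene. With the longest transcript as the length, Gata6 was at 22.6 CPM per kb and above Tbx18 in 18 of 18 libraries, and Prrx1 was at 8.28 CPM per kb, with Hand2 above it in only 2 libraries. On that scale Twist1 was above Gata6 in only 1 of 18 libraries, Tbx20 above Twist1 in 12 and Osr1 above Tbx20 in 11.

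The first question is how these factors differ between the regenerative and the non-regenerative age. When all 9 libraries of the P10 window were set against all 9 of the P2 window, 3 of the 10 factors passed the test (edgeR's quasi-likelihood test, Benjamini-Hochberg adjusted p under 0.05 over all 16170 genes), against 13.5% of all genes tested. The T-box factors Tbx18 and Tbx20 were lower at P10 and Osr1 was higher. The median log2 fold change of the 10 was -0.20 and that of all genes tested was -0.06. The 2 that fell compare with 6.39% of all genes called lower, and the 1 that rose with 7.11% called higher.

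**Figure D1:**
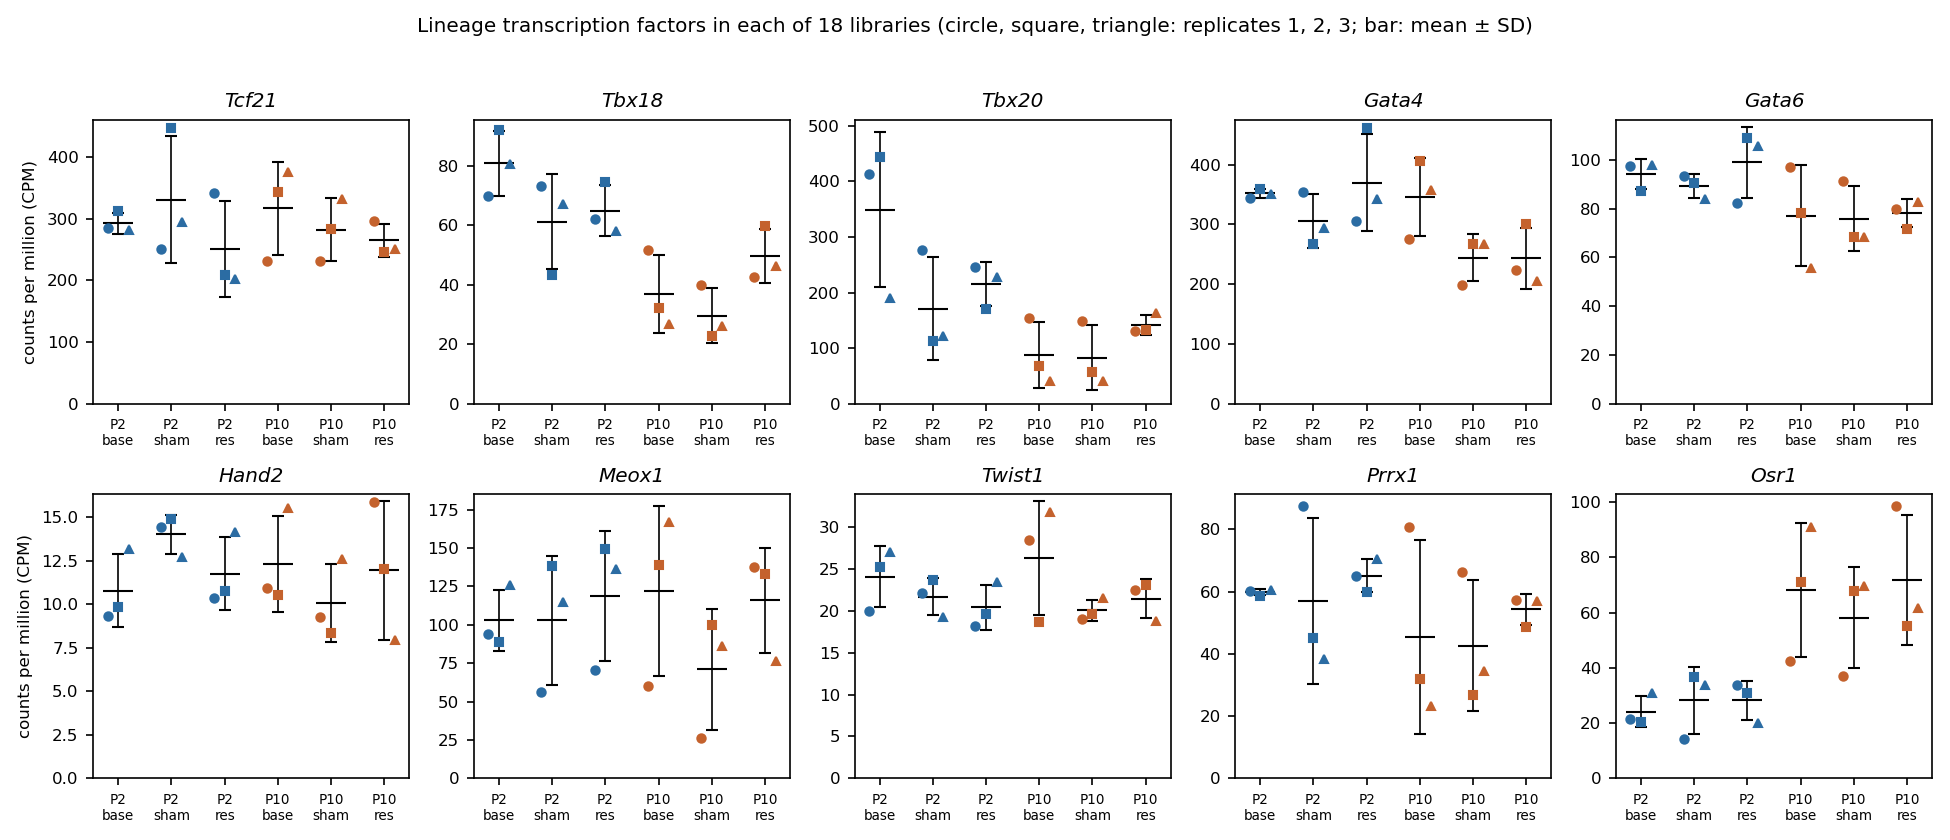
Level of each of the 10 transcription factors in CPM (linear axis from 0, a separate scale for each gene) in the 18 libraries, with P2-window libraries in blue and P10-window libraries in orange, replicates as circle, square and triangle, and black bars for the mean ± SD of 3 libraries. Osr1 separates the ages, with every P2 library at or below 36.8 CPM and every P10 library at or above 37.2 CPM, while Tbx20 reaches 444 CPM at P2 baseline and falls to 40.7 CPM at P10 baseline.

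Tbx18 lies at chr9:87702800-87731260 on the minus strand of GRCm38, with 9 exon blocks, of whose bases 20.6% are shared with D030062O11Rik on the other strand. Counting ignored strand, but that partner had at most 21 counts in any library and Tbx18 at least 272. Tbx18 was at 69.8, 91.9 and 80.5 CPM in the P2 baseline libraries, 73.2, 43.1 and 67.2 at P2 sham +3 days, and 62.1, 74.4 and 58.2 in the P2 resected +3 days group. The P10 libraries were lower on average, at 51.7, 32.1 and 26.8 CPM at P10 baseline, 40.0, 22.6 and 26.1 at P10 sham +3 days, and 42.6, 59.7 and 46.1 at P10 resected +3 days. In 6 of the 9 P10 libraries Tbx18 was below the lowest P2 library, and all 3 that overlapped the P2 range were P10 resected libraries or P10 baseline replicate 1. Between the windows Tbx18 had a log2 fold change of -0.86 (standard error, SE, 0.172, adjusted p = 0.00246), which is 1.81-fold lower.

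Tbx20 lies at chr9:24718138-24774303, also on the minus strand, and its 10 exon blocks sum to 11997 bases, the longest of the 10 factors. It was the most variable of them, spanning 10.9-fold from the lowest to the highest library. Tbx20 was at 414, 444 and 190 CPM at P2 baseline, 277, 113 and 123 at P2 sham +3 days, and 247, 171 and 228 after P2 resection. In the P10 window the values were 155, 66.9 and 40.7 CPM at P10 baseline, 149, 56.3 and 41.3 at P10 sham +3 days, and 131, 133 and 163 at P10 resected +3 days. In 4 of 9 P10 libraries it was below every P2 library, and the log2 fold change between the windows was -1.22 (SE 0.295, adjusted p = 0.00967), or 2.33-fold lower.

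Cardiomyocytes also make Tbx20, and cardiomyocyte transcripts were lower at P10 in the sorted cells. Of 13 markers 12 were tested, 7 fell and 0 rose. The summed level of the 13 markers had a median of 1109 CPM in the P2 window (334 to 1564) and 534 CPM in the P10 window (163 to 821). Tnnt2, which encodes cardiac troponin T, fell by 1.07 on the log2 scale (adjusted p = 0.0134). Within groups the levels went together in some libraries and apart in others. At P2 baseline, replicate 3 had the lowest cardiomyocyte sum (1167 CPM, against 1564 and 1326) and the lowest Tbx20 (190 CPM). P10 sham +3 days replicate 1 had the lowest cardiomyocyte sum of all libraries, 163 CPM, and the highest Tbx20 of its group, 149 CPM. In these libraries long genes also stood apart from short ones, by -0.36 and 0.64 on the log2 scale, as described below. Tbx20 is the longest of the 10. The part of cardiomyocyte RNA in the fall of Tbx20 was not tested. Wt1, the epicardial marker, ranged from 0 to 3.49 CPM and had a log2 fold change of -2.86 (adjusted p = 0.125), and its part in the fall of Tbx18 was not tested either.

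The annotated start regions of both T-box genes are shown because the genes moved in the same direction, beside that of Tcf21, which did not pass the test. Each is the RefSeq sequence on GRCm38.p6 from 250 bases before to 50 bases after the start, read along the gene, with matches to any of 3 binding motifs in capitals.
Tbx18 (chr9:87731211-87731510, minus strand): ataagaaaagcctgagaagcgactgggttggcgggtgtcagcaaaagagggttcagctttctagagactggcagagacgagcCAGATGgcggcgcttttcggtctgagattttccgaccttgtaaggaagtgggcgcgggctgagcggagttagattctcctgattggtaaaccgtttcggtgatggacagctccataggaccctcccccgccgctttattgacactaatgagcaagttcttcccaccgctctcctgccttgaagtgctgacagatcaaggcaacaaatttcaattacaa
Tbx20 (chr9:24774254-24774553, minus strand): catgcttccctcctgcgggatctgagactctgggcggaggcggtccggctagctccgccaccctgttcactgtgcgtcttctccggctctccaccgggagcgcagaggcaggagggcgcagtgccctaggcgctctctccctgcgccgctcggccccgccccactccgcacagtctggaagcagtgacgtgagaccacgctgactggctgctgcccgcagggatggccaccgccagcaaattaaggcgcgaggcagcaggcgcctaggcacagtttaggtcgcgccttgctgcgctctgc
Tcf21 (chr10:22820094-22820393, minus strand): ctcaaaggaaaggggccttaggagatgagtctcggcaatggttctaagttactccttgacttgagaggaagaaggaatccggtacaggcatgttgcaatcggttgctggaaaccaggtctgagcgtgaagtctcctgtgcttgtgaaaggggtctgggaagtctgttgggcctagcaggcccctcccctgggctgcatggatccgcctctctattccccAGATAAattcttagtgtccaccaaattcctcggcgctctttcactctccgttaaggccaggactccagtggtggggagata
The motifs searched on both strands were the T-box core GGTGTG, the bHLH E-box CANNTG and the GATA site AGATAA, which occur in 19%, 72.1% and 11.4% of 27025 promoters of this length. The Tbx18 window held 1 E-box, at position -168 from the start, and the Tcf21 window held 1 GATA site, at position -31. The Tbx20 window held none of the 3, and it was richer in GC, at 68.3% with 26 CpG, than the Tbx18 window (51.7%, 15 CpG), the Tcf21 window (53.3%, 8 CpG) and the median promoter (52.7%, 7 CpG). A promoter entry was available for 6 of the 10 factors. Among the other 3 with an entry, Hand2 held 2 E-boxes and 1 GATA site, and Twist1 and Prrx1 held no match.

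Osr1, at chr12:9570116-9581500 on the plus strand, was the only one of the 10 whose P2 and P10 libraries did not overlap, a pattern shown by 2.51% of all genes tested. It was at 21.5, 20.3 and 30.8 CPM at P2 baseline, 14.4, 36.8 and 33.7 at P2 sham +3 days, and 33.8, 30.8 and 20.2 after P2 resection. Its P10 values were 42.6, 71.1 and 91.1 CPM at P10 baseline, 37.2, 67.8 and 69.6 at P10 sham +3 days, and 98.7, 55.2 and 61.7 at P10 resected +3 days. The log2 fold change was 1.29 (SE 0.226, adjusted p = 0.000792), which is 2.45-fold higher. The margin between the ages was small, since the highest P2 library (36.8 CPM) and the lowest P10 library (37.2 CPM) nearly met. Summed markers of other cell types were also higher at P10: the median went from 590 to 830 CPM for mural cells, from 293 to 391 CPM for endothelial cells and from 77.5 to 255 CPM for macrophages, with overlapping ranges. The sum of the 12 fibroblast markers rose as well, from a median of 71830 to 103652 CPM, with 4 markers passing as higher and 1 as lower. Of the 9 mural markers 5 passed as higher, Vtn (3.90), Myh11 (2.42), Kcnj8 (1.10), Higd1b (1.02) and Rgs5 (0.74), and 1 as lower, Mcam (-0.86, adjusted p = 0.019). Of all genes tested, 7.11% were called higher and 6.39% lower. Of the 9 endothelial markers only Esam (0.90, adjusted p = 0.0223) passed, and 3 had log2 fold changes below 0, among them Pecam1 (-0.16) and Kdr (-0.01). The most abundant of the 9 was Tek, at a mean of 246 CPM (0.45, adjusted p = 0.0582). Of the macrophage markers Cd14 passed (2.11, adjusted p = 0.0304). The part of any of these cell types in the rise of Osr1 was not tested.

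Tcf21, the factor whose gene drives the Cre used for the sort, did not differ between the windows by more than its error. It ranged from 203 to 447 CPM with a median of 285 in the P2 window, and from 231 to 376 CPM with a median of 284 in the P10 window. The log2 fold change was -0.01 with a 95% confidence interval of -0.33 to 0.30 (adjusted p = 0.993). The other bHLH factors, Twist1 and Hand2, had log2 fold changes of 0.03 (interval -0.29 to 0.35) and -0.09 (interval -0.51 to 0.33). Twist1 lay between 18.2 and 31.9 CPM and Hand2 between 7.92 and 15.9 CPM over all 18 libraries. Of the exon bases of Hand2, 19.6% are shared with the opposite-strand Hand2os1, which had 37 to 298 counts against 102 to 323 for Hand2, so the Hand2 values are uncertain.

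Both GATA factors were lower at P10 without passing the adjusted threshold. Gata4 was at 344, 360 and 351 CPM at P2 baseline and at 276, 406 and 358 at P10 baseline, so that the unoperated groups overlapped. It was at 305, 462 and 343 CPM at P2 resected +3 days and at 224, 301 and 205 at P10 resected +3 days, which did not overlap. Between the windows its log2 fold change was -0.32 (SE 0.128, unadjusted p = 0.0239, adjusted p = 0.112), and that of Gata6 was -0.29 (SE 0.127, unadjusted p = 0.0358, adjusted p = 0.144). Gata6 was at 82.2 to 109 CPM in the P2 window and 55.7 to 97.1 CPM in the P10 window, with 6 of 9 P10 libraries below every P2 library. It passed with voom (-0.34, adjusted p = 0.0207), which called 4569 of all genes, against 2183 in edgeR's test. With these, 5 of the 10 factors had an unadjusted p under 0.05, against 28.3% of all genes.

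The homeobox factors had wide errors. Prrx1 was at 38.2 to 87.6 CPM (median 60.2) in the P2 window and 23.3 to 80.9 CPM (median 48.7) in the P10 window, a log2 fold change of -0.36 with an interval of -0.86 to 0.15 (adjusted p = 0.36). Meox1 was at 56.1 to 149 CPM (median 115) and 26.4 to 167 CPM (median 100.1), a log2 fold change of -0.11 with an interval of -0.68 to 0.46 (adjusted p = 0.851). The value of Prrx1 depended on single libraries. Without P10 baseline replicate 1 its log2 fold change was -0.60 and passed (SE 0.2, adjusted p = 0.0484), and without P2 sham +3 days replicate 1 it was -0.21. It also passed with voom (-0.50, adjusted p = 0.0193), and at baseline with voom (-0.89, adjusted p = 0.0212). Of all 16170 genes, voom called 4569 between the windows and 3645 at baseline, where edgeR's test called 2183 and 709. The fit without P10 baseline replicate 1 called 2987 between the windows.

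Within single conditions, the main test called members of the 10 at baseline alone. There Tbx18 (log2 fold change -1.13, SE 0.299, adjusted p = 0.0391), Tbx20 (-2.0, SE 0.522, adjusted p = 0.0371) and Osr1 (1.5, SE 0.393, adjusted p = 0.0378) passed, against 4.38% of all genes (18.7% at an unadjusted p under 0.05), and their 3 P10 libraries did not overlap the 3 P2 libraries, as was the case for 22.4% of all genes. Over 6 fits that each lacked 1 library, the log2 fold change ran from -1.45 to -0.95 for Tbx18, from -2.69 to -1.66 for Tbx20 and from 1.23 to 1.75 for Osr1, and most calls were lost. None of the 10 passed when P2 baseline replicate 1 or 2, or P10 baseline replicate 2 or 3, was left out, Tbx20 alone passed without P2 baseline replicate 3, and none passed when the spread was estimated from these 6 libraries alone (log2 fold changes -1.10, -1.97 and 1.52).

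After sham surgery none of the 10 passed in edgeR's test, against 3.18% of all genes, and Tbx18 and Osr1 had an unadjusted p under 0.05, against 16.3%. DESeq2 and voom each called 1 of the 10, Tbx18, and 1191 and 707 of all genes, against 515 in edgeR's test. Tbx18 was lower at P10 by 1.05 on the log2 scale with no overlap (log2 fold change -1.05, SE 0.298, adjusted p = 0.0676), Osr1 was higher without overlap (1.04, SE 0.389, adjusted p = 0.185), and Tbx20 overlapped (-1.05, SE 0.509, adjusted p = 0.317). The Tbx20 value was -1.81 without P10 sham +3 days replicate 1 and -0.52 without P2 sham +3 days replicate 1. Hand2 also had no overlap, at 14.4, 14.9 and 12.7 CPM at P2 sham +3 days and 9.24, 8.34 and 12.6 CPM at P10 sham +3 days (adjusted p = 0.546), and groups without overlap made up 16.7% of all genes. Leaving out P2 sham +3 days replicate 2 or P10 sham +3 days replicate 1 put Tbx18 past the threshold.

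After resection none passed in edgeR's test either, against 0.86% of all genes, and Osr1 and Gata4 had an unadjusted p under 0.05, against 8.77%. DESeq2 called 1 of the 10 and voom 2, and these tools called 496 and 908 of all genes, against 139 in edgeR's test. Osr1 had a log2 fold change of 1.35 (SE 0.391, adjusted p = 0.147), Gata4 of -0.61 (SE 0.222, adjusted p = 0.335), Tbx20 of -0.60 (SE 0.505, adjusted p = 0.91) and Tbx18 of -0.39 (SE 0.295, adjusted p = 0.872). Osr1, Gata4, Tbx20 and Prrx1 had no overlap between P2 resected and P10 resected libraries, and 23.3% of all genes had none.

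**Figure D2:**
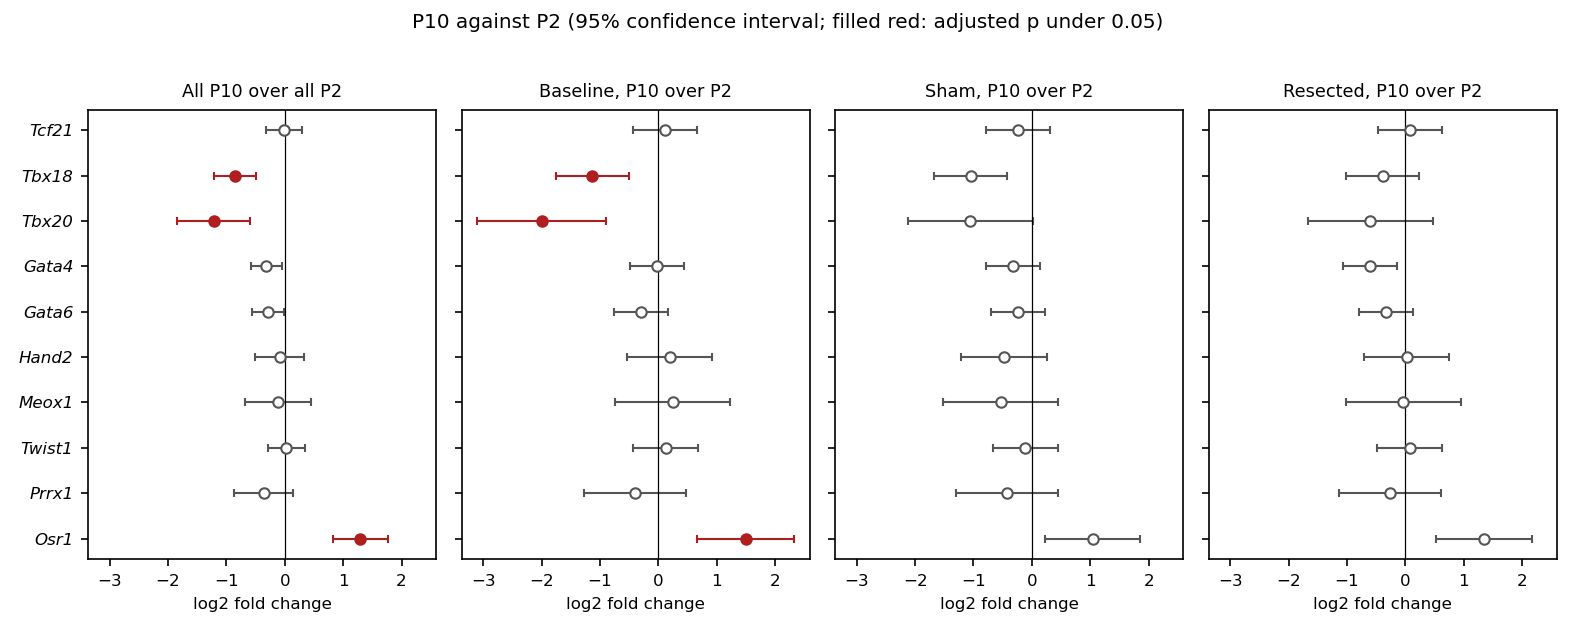
Log2 fold change of each factor between P10 and P2 over all libraries (9 against 9) and in the baseline, sham and resected libraries alone (3 against 3 each), with bars for the 95% confidence interval and filled red points for an adjusted p under 0.05. Tbx18 and Tbx20 lie left of 0 and Osr1 right of 0 in all 4 panels, and the Tbx20 interval spans from -3.10 to -0.90 at baseline.

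Replicates of a group differed in a way that was shared by many genes and followed gene length. Among the 16067 tested genes with an annotated exon length, the longest 25% (6371 bases or more) were set against the shortest 25% (2398 bases or less) in each library by their median deviation from the group mean. Long genes stood above short genes by 0.81 on the log2 scale in P2 sham +3 days replicate 1, by 0.67 in P10 baseline replicate 1 and by 0.64 in P10 sham +3 days replicate 1. They stood below them in P2 sham +3 days replicate 2 (-0.62), P10 baseline replicate 3 (-0.51) and P2 baseline replicate 3 (-0.36). The libraries of the resected groups differed least, from -0.04 to 0.07.

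Of the 10 factors, 7 kept the same side in these libraries, and the share of all tested genes that did so was not counted. In all 3 of the libraries where long genes stood highest, Tbx18, Tbx20, Gata6 and Prrx1 had the highest level of their group and Tcf21, Meox1 and Osr1 the lowest. These 3 libraries are replicate 1 of their groups and the only ones whose titles end in 3, what that number stands for is not given, and their deviations correlated with each other at r = 0.29 to 0.38 over 16170 genes, which are not independent replicates. Without all 3 of them, a step added after the data were seen, Tbx18, Tbx20 and Osr1 passed between the windows and so did Gata6 and Prrx1 (-0.61, adjusted p = 0.00264), in a fit that called 3778 genes in all, against 2183 with all libraries. Tbx20, Prrx1 and Gata6 belong to the longest 25% of genes, at 11997, 11066 and 6508 bases. Tcf21 (2349 bases), Hand2 (2351), Meox1 (2228), Osr1 (2066) and Twist1 (1628) belong to the shortest. The short genes Hand2 and Twist1 did not follow: in these 3 libraries Hand2 was never the lowest of its group and Twist1 was lowest in 1. Tbx18, which was highest in all 3, has 4718 bases and belongs to neither class. Gata4, also of intermediate length (3904 bases), was highest in 1 and lowest in 2. In each of the 6 groups the library with the highest Tbx20 had the lowest Meox1, a pattern that was noticed after the values were seen and that 1.94% of the other tested genes also showed. The median exon length of those genes was 2567 bases, against 4014 for all tested genes and 6353 for the 1.41% that were highest wherever Tbx20 was highest.

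**Figure D3:**
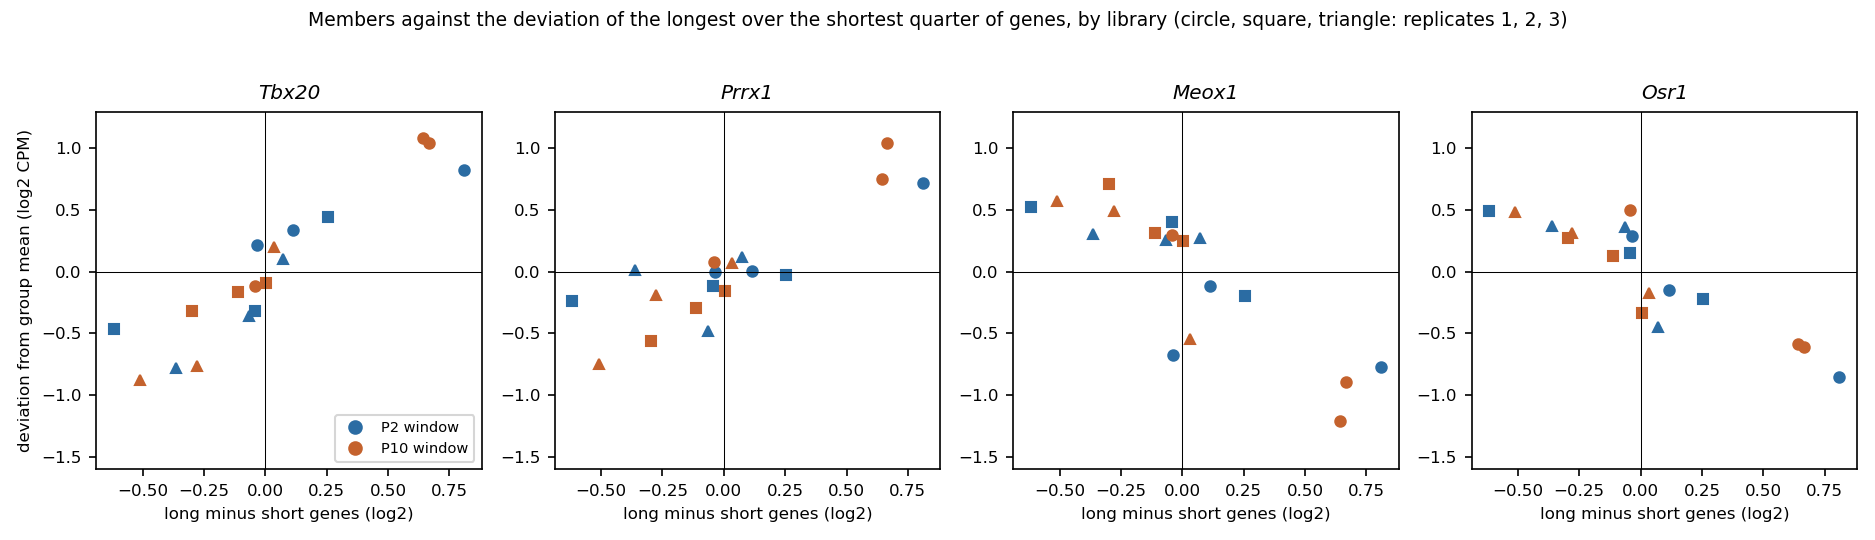
Deviation of Tbx20, Prrx1, Meox1 and Osr1 from their group mean (log2 CPM, vertical) against the deviation of the longest over the shortest 25% of genes (log2, horizontal), 1 point per library, with P2-window libraries in blue, P10-window libraries in orange, and replicates as circle, square and triangle. The 3 libraries at the far right, 0.64 to 0.81, hold high Tbx20 and Prrx1 and low Meox1 and Osr1.

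Because Tbx20 is long and Osr1 short, their age differences were set beside those of genes of like length. The 500 tested genes closest in length had a median log2 fold change between the windows of -0.20 for Tbx20, 0.00 for Tbx18 and 0.03 for Osr1, against -1.22, -0.86 and 1.29 for the genes themselves. When each library was given a length curve of its own as an offset, a step added after the data were seen, Tbx18 (-0.84, SE 0.161), Tbx20 (-1.01, SE 0.164) and Osr1 (1.29, SE 0.173) passed again between the windows, with adjusted p-values of 0.00144, 0.000307 and 5.23e-05, where 16.1% of all genes did. The SE of Tbx20 fell from 0.295 to 0.164 and its median coefficient of variation within groups from 46.8% to 20.2%. The adjustment did not narrow every factor: the coefficient of variation of Gata6 went from 11.1% to 14.2% and that of Twist1 from 12% to 15.4%. On the adjusted scale 8 of 9 P10 libraries were below every P2 library for Tbx20, where 4 had been, and 7 of 9 for Tbx18, where 6 had been. For Gata6 the number went from 6 to 3 and for Prrx1 from 4 to 3. For Osr1 the P2 libraries reached 32.8 and the P10 libraries began at 45.8 adjusted CPM. Prrx1 moved from -0.36 to -0.20 (adjusted p = 0.391).

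The same offsets changed 2 of the smaller comparisons. Tbx18 passed after sham surgery (-1.07, SE 0.281, adjusted p = 0.0388, where 4.05% of all genes did), and Osr1 passed after resection (1.33, SE 0.3, adjusted p = 0.0358, where 1.2% of all genes did). With the offsets Tbx20 also had an unadjusted p of 0.0159 for resected over sham at P10 (0.75, adjusted p = 1). The share of all genes at an unadjusted p under 0.05 there was 4.09% without the offsets and was not counted with them. The calls at baseline were Tbx18, Tbx20 and Osr1 again, at adjusted p-values of 0.0276, 0.00134 and 0.0079, where 6.38% of all genes passed.

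The second question is whether removal of the apex altered these factors within an age. At P2, 0 of the 10 passed and 0% of all genes did. The 10 log2 fold changes of resected over sham ran from -0.40 for Tcf21 to 0.33 for Tbx20, with no unadjusted p under 0.05 among them, where 730 genes (4.51%) had one. With 1 library left out at a time, Tcf21 ran from -0.68 (without P2 resected +3 days replicate 1) to -0.13 (without P2 sham +3 days replicate 2) and Tbx20 from 0.09 (without P2 sham +3 days replicate 2) to 0.87 (without replicate 1). Tcf21 was at 251, 447 and 296 CPM at P2 sham +3 days and 341, 209 and 203 CPM at P2 resected +3 days, which overlapped. No factor separated the 2 groups, as 8.47% of all genes did. The 95% intervals reached from -0.98 (Hand2) to 1.39 (Tbx20), and differences within a factor's interval were not excluded. DESeq2 and voom also called 0 of the 10, and 25 and 0 of all genes.

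At P10, 0 of the 10 passed and again 0% of all genes, and 661 genes (4.09%) had an unadjusted p under 0.05. Tbx18 was the only one of the 10 among them. Its 3 P10 sham libraries (40.0, 22.6 and 26.1 CPM) were all below the 3 P10 resected libraries (42.6, 59.7 and 46.1 CPM), which 8.68% of all genes showed as a lack of overlap, and the log2 fold change was 0.74 (SE 0.297, unadjusted p = 0.023, adjusted p = 1). Over 15 alternatives its log2 fold change ran from 0.58 to 1.02 and its adjusted p from 0.216 to 1. Of 9 epicardial markers, 4 to 9 had counts in the P10 resected libraries and 1 to 5 in the P10 sham libraries. The part of epicardial cells in this difference was not tested. Tbx20 (0.79, interval -0.28 to 1.85) and Meox1 (0.71, interval -0.28 to 1.69) were higher on average after resection with overlapping libraries. With 1 library left out at a time Tbx20 ran from 0.47 (without P10 sham +3 days replicate 3) to 1.54 (without replicate 1) and Meox1 from 0.31 (without P10 sham +3 days replicate 1) to 1.04 (without replicate 2). Meox1 was at 26.4, 100.1 and 86.3 CPM after sham surgery and 138, 133 and 76.5 CPM after resection. DESeq2 and voom called 0 of the 10 here as well, and 39 and 0 of all genes.

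The difference between the resection effects at P10 and P2 was tested directly. None of the 10 passed and 0% of all genes did, with 465 genes (2.88%) at an unadjusted p under 0.05 and 0 of the 10 among them. With all libraries it was largest for Tbx18, at 0.66 on the log2 scale (SE 0.418, interval -0.22 to 1.54, unadjusted p = 0.134). Without P10 sham +3 days replicate 1 it was 0.93 for Tbx18 and 1.21 for Tbx20. The same contrast compares the age difference after resection with that after sham surgery, so the smaller age difference of Tbx18 after resection (-0.39) than after sham (-1.05) was within the error.

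**Figure D4:**
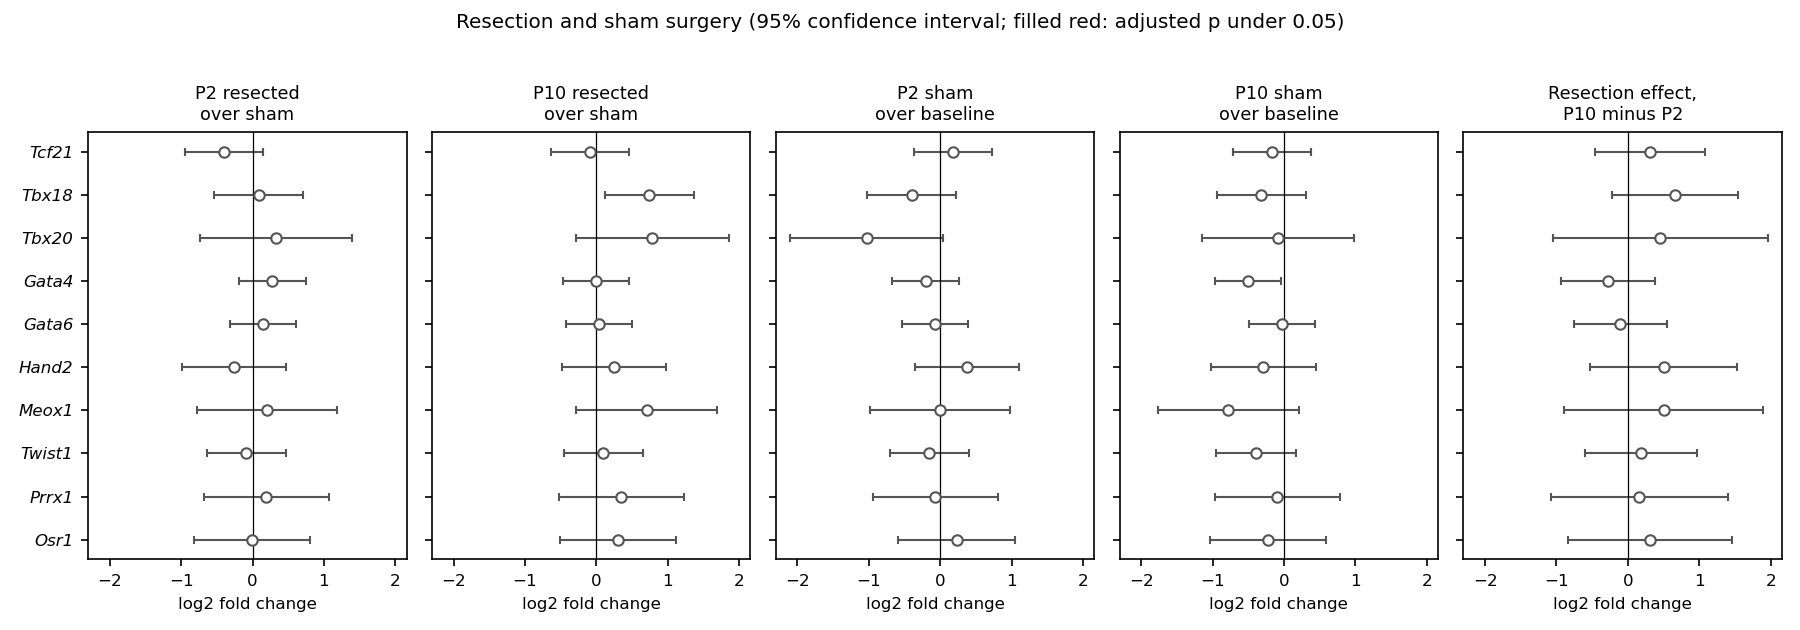
Log2 fold change of each factor for resected over sham libraries at P2 and at P10, for sham over baseline libraries at P2 and at P10 (3 against 3 each), and for the difference of the resection effects, with bars for the 95% confidence interval. No point is filled, since no factor passed an adjusted p under 0.05, and only Tbx18 at P10 resected over sham and Gata4 at P10 sham over baseline have intervals that leave out 0.

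Sham against baseline holds both the surgery and 3 days of growth. At P2, 0 of the 10 and 0% of all genes passed (1229 genes, 7.6%, at an unadjusted p under 0.05). Tbx20 was at 414, 444 and 190 CPM at baseline and 277, 113 and 123 CPM after sham, a log2 fold change of -1.03 (SE 0.508, unadjusted p = 0.0583), and overlapped by 1 library on each side. None of the 10 separated the groups, as 9.96% of all genes did. At P10, 0 of the 10 passed and 1 gene of all those tested (0.00618%), with 1197 genes (7.4%) at an unadjusted p under 0.05. All 10 fitted log2 fold changes were below 0, from -0.78 for Meox1 to -0.02 for Gata6, and the median of all genes was -0.02. The shared sign was not stable: without P10 baseline replicate 1 the values of Tbx18 (0.0054), Tbx20 (0.61), Gata6 (0.18) and Prrx1 (0.62) were above 0, with the length offsets those of Tbx20, Gata6 and Prrx1 were, and Meox1 ran from -1.11 (without P10 sham +3 days replicate 2) to -0.39 (without replicate 1). Gata4 was at 276, 406 and 358 CPM at baseline and 199, 267 and 268 CPM after sham, without overlap, as in 10% of all genes (log2 fold change -0.50, SE 0.221, unadjusted p = 0.0359, adjusted p = 0.651). DESeq2 and voom called 0 of the 10 at either age, where they called 138 and 0 of all genes at P2 and 121 and 1 at P10.

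The relatives of these factors give a measure of which family members the sorted cells make. Of 22 paralogs, 16 passed the filter on low counts. Tbx4, Tbx22 and Gata1 had 0 counts in all libraries, Hand1, the partner of Hand2 in the early heart, had 2, Gata5 37 and Tbx1 55. Between the windows 2 of the 16 rose and 0 fell, against 13.5% of all genes called in either direction. Tcf15, a bHLH factor of the somites, was at 2.42 to 11.4 CPM in the P2 window and 5.58 to 34.9 CPM in the P10 window (log2 fold change 1.32, SE 0.366, adjusted p = 0.0221), and Tbx2, a T-box repressor, was at 24.6 to 55.2 and 34.9 to 107 CPM (0.56, SE 0.171, adjusted p = 0.0368). The other T-box relatives that were tested, Tbx3, Tbx5 and Tbx15, did not pass. The closest relatives of the other members did not pass, among them Meox2 (-0.40, adjusted p = 0.105), Twist2 (0.41), Prrx2 (-0.14) and Osr2 (0.47), and Tbx3 had a log2 fold change of 2.12 with an adjusted p of 0.0739, and with the length offsets it passed (2.28, adjusted p = 0.0415). Both Tcf15 and Tbx2 also passed at baseline, where 2 of 16 paralogs rose, beside 4.38% of all genes called.

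Among 16 partners and cofactors, all of them tested, 1 rose and 2 fell, a share close to the 13.5% of all genes called. Tcf12, an E-protein with which TCF21, HAND2 and TWIST1 can pair, was at 84.8 to 178 CPM in the P2 window and 53.2 to 114 CPM in the P10 window (-0.89, SE 0.17, adjusted p = 0.0016). The other E-proteins did not pass (Tcf3 -0.20, Tcf4 0.06). The inhibitors of DNA binding, which hold E-proteins away from DNA, went both ways: Id1 fell (-0.83, SE 0.221, adjusted p = 0.0179) and Id2 rose (0.45, SE 0.144, adjusted p = 0.0454). Neither Zfpm1 nor Zfpm2, the FOG partners of GATA4, passed. Tcf12 has 15529 exon bases and Tcf4 27382, and with the length offsets Tcf12 remained lower (-0.60, adjusted p = 0.00112), Id1 remained lower, Tcf4 passed as higher (0.52, SE 0.133, adjusted p = 0.0113) and Id2 no longer passed (0.47, adjusted p = 0.0623).

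In a wider list of 50 mesenchymal and cardiac transcription factors, 45 were tested, 4 rose and 4 fell between the windows, beside 13.5% of all genes called. Those that rose were the early-response factors Klf2 (0.58, adjusted p = 0.00614), Klf4 (1.00, adjusted p = 0.0152) and Egr1 (0.69, adjusted p = 0.041), and Glis2 (0.59, adjusted p = 0.00345). Glis2, a Krüppel-like zinc-finger factor, had no overlap, with 48.5 to 85.0 CPM in the P2 window and 90.7 to 116 CPM in the P10 window. Those that fell were Snai2, which encodes SLUG, a factor of epithelial-mesenchymal transition (-0.96, adjusted p = 0.00404), Sox9 (-0.45, adjusted p = 0.019), Foxp1 (-0.75, adjusted p = 0.00995) and Tead1, a DNA-binding partner of YAP (-1.14, adjusted p = 0.0242). The medians of the 3 lists were 0.00, -0.07 and -0.08, close to the -0.06 of all genes. With the length offsets 4 rose and 6 fell, Irx5 and Hey2 being added, beside 16.1% of all genes. At baseline Klf2 was the only one of the 45 called, and after sham surgery and after resection 0 were, where 4.38%, 3.18% and 0.86% of all genes were called. In the resected over sham comparisons, 0 genes of these 3 lists passed at P2 or P10.

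The genes most like each factor were found by the root-mean-square difference of their log2 levels, each centred on its own mean, over the 18 libraries. The nearest to Tcf21 were Stx5a and Frg1 (0.17 for both), where the median gene was 0.76 away. A gene that did not vary at all would be as far away as the factor's own spread. That spread was 0.22 for Twist1, 0.24 for Gata6, 0.29 for Tcf21 and 0.30 for Hand2, so closeness to these flat factors says little. It was widest for Osr1 (0.78) and Tbx20 (0.97). The levels were not adjusted for gene length. The nearest to Tbx18 were Hnrnpd and Grb10 (both 0.25), those to Tbx20 were Cenpc1 and Nf1 (both 0.35) and those to Prrx1 were Sbno1 (0.20) and Aff4 (0.22). Tfeb (0.29) and Mrgprf (0.32) were nearest to Osr1, Mob3a (0.30) and Hist1h1c (0.32) to Meox1, and Maged1 (0.13) and Trim28 (0.14) to Gata4. For Gata6 they were Lbr (0.16) and Fyttd1 (0.17), for Hand2 Ift20 and Tsn (both 0.20), and for Twist1 B3glct (0.18) and Ttc7b (0.19). No other member of the 10 was among the 2 nearest genes of any member.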

How the data were processed

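GFP+ cells were sorted from 18 samples of neonatal mouse heart, and the RNA was amplified with a SMARTer kit and sequenced from a single end. The deposited values are counts of reads per gene symbol, which the authors made with fastp 0.20.0, STAR 2.7.0f and featureCounts (Subread 1.6.4) on GRCm38.p6 without regard to strand, and did not normalize. Library totals were 10462737 to 22980554 counts, which limits the precision of low genes such as Hand2. The test was edgeR 4.0.16's (R 4.3.3) on these counts: filterByExpr (minimum count 10, minimum total 15), TMM factors, a quasi-likelihood fit of all 18 libraries with a mean per group, and Benjamini-Hochberg adjustment over 16170 genes with a threshold of 0.05. Log2 CPM used a prior count of 2. Groups follow the sample labels. The named genes are the 10 factors, list genes past the threshold and the 2 genes nearest to each factor, and paralogs and partners set beside them. The members and lists were chosen with earlier results of these data known. Positions and exon lengths come from GENCODE M21, a release before the one used for counting. Alternatives were RLE and upper quartile factors, no filter, DESeq2 1.42.0, limma 3.58.1 voom with quality weights, a replicate block, only the groups compared, and each library left out. Leaving out 3 libraries together and offsets from a loess curve on exon length (span 0.5, 99.4% of tested genes with a length) were added after the data were seen.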

Additional observations from a re-analysis of the deposited data

How the results depend on the processing

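Tbx18, Tbx20 and Osr1 passed between the windows, with the same sign, in 26 of 26 alternatives, with log2 fold changes of -1.01 to -0.80, -1.52 to -1.01 and 1.19 to 1.39. The number of the 10 factors called moved from 3 to 5 between the windows with voom and with 3 libraries left out (Gata6 and Prrx1 were added in both). It was 3 to 4 between the windows when 1 library was left out, the 4 being without P10 baseline replicate 1 (Prrx1 added). At baseline it was 4 with voom and with 3 libraries left out (Prrx1 added in both), 2 with no filter (Tbx18 lost, adjusted p = 0.0552), 0 in the fit of only the groups compared, and 0 to 3 when 1 library was left out. After sham surgery it was 1 with no filter (Tbx20) and 1 with DESeq2, voom, 3 libraries left out and length offsets (Tbx18 in each), and 0 to 1 when 1 library was left out. After resection it was 1 with no filter, DESeq2 and length offsets (Osr1 in each) and 2 with voom (Gata4 and Osr1). For P2 sham over baseline it was 1 with 3 libraries left out (Tbx20), where 463 of all genes were called. Between the windows voom called 4569 of all genes and the fit with 3 libraries left out 3778, against 2183 in edgeR's test. At baseline these fits called 3645 and 2820, against 709. With no filter 911 genes were called after sham surgery, against 515, and 526 after resection, against 139. The 3 libraries are replicate 1 of P2 sham, P10 baseline and P10 sham. With the replicate block 3 factors were called between the windows and 3 at baseline, no call changed, and 15 of 45 pairs of libraries with the same number had deviations that correlated above 0.1, so the replicate numbers were not taken to pair libraries. The 3 libraries named above share replicate number 1, and among them every correlation was 0.29 to 0.38. The count of all genes called ran over all alternatives from 1680 to 4569 between the windows, 264 to 3645 at baseline, 125 to 1191 after sham, 30 to 908 after resection, 0 to 26 and 0 to 76 for resected over sham at P2 and P10, 0 to 463 and 0 to 151 for sham over baseline at P2 and P10, and 0 to 30 for the difference of resection effects. Depth limits Hand2, at 102 to 323 counts, more than the other 9. The sign turned, with the cause not tested, only for values that were not called, listed here as log2 fold changes by setting with the comparison in parentheses.

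With RLE factors the sign turned for Gata4 at 0.0019 (the ages at baseline) and Meox1 at 0.023 (P2 sham over baseline). With upper quartile factors the sign turned for Tcf21 at 0.014 (the windows), Gata4 at 0.019 (the ages at baseline), Meox1 at 0.00067 (the ages after resection) and Meox1 at 0.043 (P2 sham over baseline). With no filter on low counts the sign turned for Tcf21 at 0.025 (the windows), Gata4 at 0.042 (the ages at baseline), Osr1 at 0.015 (P2 resected over sham) and Meox1 at 0.019 (P2 sham over baseline). With the replicate block the sign turned for Meox1 at 0.13 (the ages after resection) and Osr1 at 0.071 (P2 resected over sham). With DESeq2 the sign turned for Gata4 at 0.0019 (the ages at baseline) and Meox1 at 0.023 (P2 sham over baseline). With voom the sign turned for Tcf21 at 0.11 (the windows), Gata4 at 0.12 and Twist1 at -0.033 (the ages at baseline), Meox1 at 0.20 (P2 sham over baseline) and Prrx1 at 0.070 (P10 sham over baseline). With the fit of only the groups compared the sign turned for Gata4 at 0.0062 (the ages at baseline). With 3 libraries left out the sign turned for Tcf21 at 0.035 and Meox1 at 0.032 (the windows), Gata4 at 0.12 (the ages at baseline), Meox1 at -0.085 (P2 resected over sham), Meox1 at 0.30 (P2 sham over baseline), Gata6 at 0.024 and Prrx1 at 0.15 (P10 sham over baseline) and Gata6 at 0.013 (the difference of resection effects). With length offsets the sign turned for Tbx18 at -0.020, Gata6 at -0.026, Prrx1 at -0.040 and Osr1 at 0.013 (P2 resected over sham), Gata6 at -0.021 (P10 resected over sham), Gata6 at 0.048 and Prrx1 at 0.15 (P2 sham over baseline), Tbx20 at 0.075, Gata6 at 0.019 and Prrx1 at 0.10 (P10 sham over baseline) and Gata6 at 0.0049 (the difference of resection effects).

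When 1 library at a time was left out the sign turned for other uncalled values, and their lowest and highest log2 fold changes are given here. For the windows these were -0.025 to 0.093 for Twist1, -0.068 to 0.096 for Tcf21 and -0.22 to 0.022 for Meox1. For P2 sham over baseline these were -0.26 to 0.30 for Meox1, -0.091 to 0.34 for Tcf21 and -0.52 to 0.15 for Prrx1. For the ages after sham these were -0.89 to 0.031 for Prrx1 and -0.39 to 0.054 for Tcf21. For P2 resected over sham these were -0.085 to 0.48 for Meox1, -0.12 to 0.24 for Tbx18, -0.32 to 0.23 for Osr1 and -0.024 to 0.65 for Prrx1. For the difference of resection effects these were -0.084 to 1.21 for Tbx20, -0.29 to 0.63 for Prrx1 and -0.23 to 0.044 for Gata6. For the ages after resection these were -0.24 to 0.26 for Hand2, -0.0091 to 0.18 for Twist1, -0.054 to 0.36 for Tcf21 and -0.31 to 0.20 for Meox1. For the ages at baseline these were -0.15 to 0.12 for Gata4, -0.025 to 0.30 for Tcf21, -0.0032 to 0.36 for Hand2, -0.045 to 0.57 for Meox1 and -0.031 to 0.32 for Twist1. For P10 sham over baseline these were -0.60 to 0.0054 for Tbx18, -0.84 to 0.61 for Tbx20, -0.21 to 0.18 for Gata6, -0.57 to 0.62 for Prrx1 and -0.48 to 0.035 for Osr1. For P10 resected over sham these were -0.19 to 0.11 for Gata4, -0.028 to 0.20 for Gata6, -0.22 to 0.042 for Tcf21 and -0.013 to 0.47 for Hand2.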
